A study of Mus musculus with 4 samples.

Results

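Immediate early genes are switched on within minutes of a stimulus, before any new protein is needed, and most of them encode transcription factors. The 10 examined here were found by their symbol among the 54078 features of the deposited table, each as a single annotated gene. They are Fos, Fosb, Jun, Junb and Atf3, which encode basic leucine zipper proteins, the zinc finger factors Egr1 and Klf6, the small immediate early proteins encoded by Ier2 and Ier3, and Myc. Libraries were made from whole kidneys of adult male mice at day 3 after both renal pedicles had been clamped for 30 min (bilateral ischemia-reperfusion, I/R), and every group carried this injury. The knockout (KO) mice lacked Apela, the gene of the peptide elabela, in renal tubular cells through a Cre driven by the Ksp-cadherin promoter, and the wildtype (WT) mice were Apela flox/flox littermates without Cre. The labels give the strain as C57BL/6 x 129S4/SvJae. There were 2 libraries per genotype, each described as pooled RNA of 3 mice, so n = 2 counts pools. No uninjured kidney was analysed here, so levels can be compared between genotypes but not with the state before injury.

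FOS and JUN proteins pair through their leucine zippers to form AP-1, which binds DNA as a dimer, and JUN proteins can also pair with each other or with ATF3. FOS is known as a target of serum response factor downstream of the MAP kinase ERK, while ATF3 is known as a factor induced by many kinds of cell stress. IER3 is known for its role in cell survival, KLF6 as a Krüppel-like factor induced by injury, and MYC as a factor that pairs with MAX and drives ribosome production and growth. In the kidney, transcripts of this class are known to surge in the first hours after reperfusion.

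The sequence just upstream of the start site is shown for 5 members because they are the AP-1 genes and the Krüppel-like gene whose level was highest in the same pool, as described further on. RefSeq promoter sequences of GRCm38.p6 were matched by symbol for 7 of the 10 members. The 150 bases before the start site were searched on both strands for TGACG, the core of the cyclic AMP response element, for TGANTCA, the AP-1 site, for TGACATCA, the AP-1-like site known from the Jun promoter, for TATAAA, the TATA box, and for the CArG box bound by serum response factor. Each is printed 5′ to 3′ on the strand of its gene, with matches in capitals. The RefSeq start site of Atf3 lies inside the longer gene span given in the deposited table.
Fos, chr12:85473740-85473889, plus strand: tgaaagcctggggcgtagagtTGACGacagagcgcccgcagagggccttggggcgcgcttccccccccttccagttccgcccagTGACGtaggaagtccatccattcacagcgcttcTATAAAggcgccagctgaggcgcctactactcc
Junb, chr8:84978749-84978898, minus strand: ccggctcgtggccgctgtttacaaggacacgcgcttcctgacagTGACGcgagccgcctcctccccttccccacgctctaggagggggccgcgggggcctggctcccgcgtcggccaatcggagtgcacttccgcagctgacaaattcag
Atf3, chr1:191183334-191183483, minus strand: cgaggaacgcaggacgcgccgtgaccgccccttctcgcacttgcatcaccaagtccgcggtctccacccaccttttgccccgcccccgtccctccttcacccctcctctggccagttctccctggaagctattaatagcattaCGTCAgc
Jun, chr4:95052223-95052372, minus strand: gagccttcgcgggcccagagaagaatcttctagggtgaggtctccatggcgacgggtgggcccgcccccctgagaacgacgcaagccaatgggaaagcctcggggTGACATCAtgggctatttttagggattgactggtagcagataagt
Klf6, chr13:5861339-5861488, plus strand: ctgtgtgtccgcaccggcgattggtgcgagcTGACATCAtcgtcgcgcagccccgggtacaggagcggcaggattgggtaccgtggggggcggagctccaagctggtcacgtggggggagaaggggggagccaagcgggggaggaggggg

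TGACG was found in Fos, from -129 to -125 and from -66 to -62 relative to the start site, in Junb from -106 to -102, in Fosb from -60 to -56, and on the other strand in Atf3 from -7 to -3. It was present in 13.3% of the 32851 promoter entries of the same length. Jun and Klf6 held the same TGACATCA, from -45 to -38 and from -119 to -112, which 2.32% of all entries held. Fos alone of the 7 held TATAAA, from -33 to -28, against 7.57% of all entries. None of the 7 held TGANTCA or a CArG box in this window, against 4.24% and 0.916% of all entries, and Ier3 held none of the 5 motifs. These matches describe the letters in the window and are no evidence of binding.

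Expression was deposited as FPKM, in which fragments are divided by the length of the gene and the depth of its library, so levels can be compared between genes. The whole reads behind these values were recovered, and they summed to between 16045724 and 16927742 reads on genes per pool. Kidney identity was plain from uromodulin (Umod), with an FPKM from 788 to 1133, and from the proximal tubule receptor megalin (Lrp2), from 70.4 to 99.9. Of the 7 neutrophil markers, Ly6g and Mpo were listed at 0 in every pool. The other 5 had reads in every pool, with an FPKM from 4.21 to 9.23 for S100a8 and from 4.29 to 11.5 for S100a9. The targeted gene Apela was at 5.27 and 4.57 FPKM in WT against 0.536 and 0.245 in KO, from 85, 79, 9 and 4 reads. Its log2 fold change was -2.62 with a standard error of 0.22, and with 2 pools a group its limma p-value after Benjamini-Hochberg adjustment was 0.466, and none of the genes tested had a smaller one.

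All 10 members were detected in every pool at day 3, over a wide range of levels. Ier3, Junb, Klf6 and Jun formed the top, with mean FPKM over the 4 pools of 47.7, 39.2, 37.7 and 35.1. Their ranges over the pools overlapped, so their order was not resolved. Ier2 followed at 21.2, Myc at 15.6, Egr1 at 10.1 and Atf3 at 7.09, each with a range that overlapped its neighbour's in this sequence. The lowest value of Jun, 26.6, lay above the highest of Ier2, 25.3, so these ranges stood apart. Fos had a mean of 2.92 and Fosb of 0.231, and neither range reached that of the member above it. Among the 15414 genes tested, Ier3 stood at percentile 92.8 of mean FPKM and Fos at percentile 35.3.

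**Figure D1:**
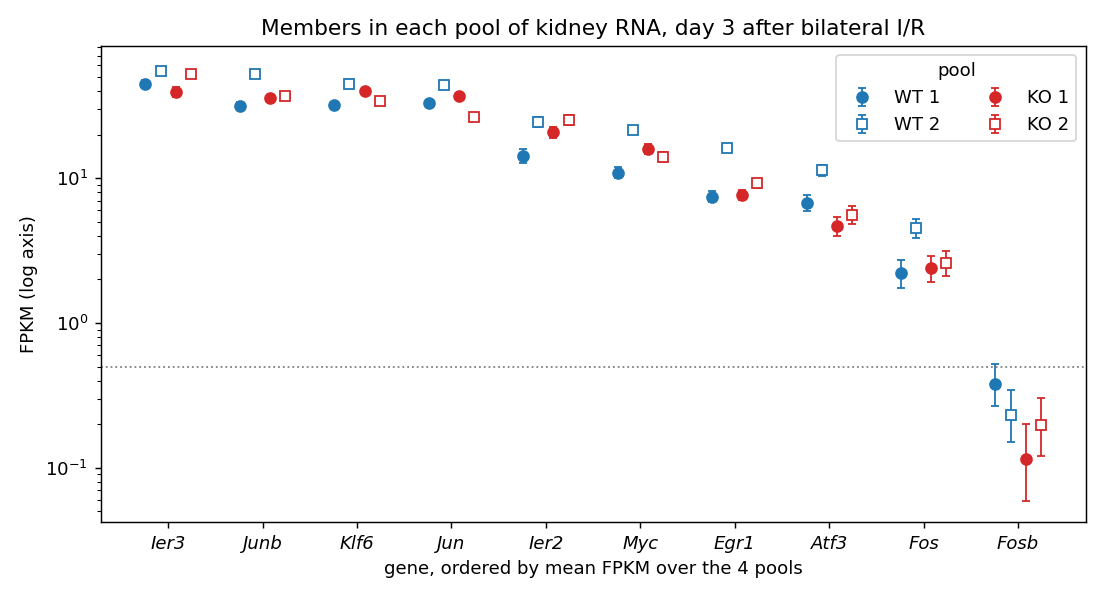
FPKM of each of the 10 genes in each pool (log axis), ordered by mean level, with circles for replicate 1, squares for replicate 2, WT in blue and KO in red. Bars are exact 95% Poisson intervals of the recovered reads, which cover counting error only, and the dotted line marks the minimum mean FPKM of 0.5 for testing. WT replicate 2 was the highest pool for 8 of the 10 genes.

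Differential expression was tested on log2(FPKM + 0.5) with limma across the 15414 genes whose mean FPKM reached 0.5, and p-values were adjusted by Benjamini-Hochberg over all of them. They weigh the genotype difference against the spread between pools, moderated over all genes, and not against the spread between single mice. The question was whether loss of tubular Apela altered the transcriptome of the injured kidney. Of the 10 members 9 were tested and Fosb was below the minimum. With limma, 0 of the 9 had an adjusted p-value under 0.05, as did 0% of all genes tested, and their adjusted p-values ranged from 0.785 to 0.989. With voom weights on the recovered reads 0 genes passed either, and 974 genes had an unadjusted p under 0.05 in limma on FPKM and 948 with these weights. At an unadjusted p under 0.05 there was 1 member, Atf3, which was lower in the KO pools, where 3.03% of all genes were lower and 3.29% higher at that level. For 1 of the 9, again Atf3, both KO pools lay below both WT pools, against 18.1% of all genes tested. For 0 of the 9 both lay above, against 19.7%. The log2 fold change was below 0 for 8 of the 9, against 48.6% of all genes, but for 2 of the 9 (Jun and Atf3) without WT replicate 2. Its median was -0.15 over the members and 0.0071 over all genes tested.

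Atf3 (ENSMUSG00000026628) is a minus-strand gene of chromosome 1 in GRCm38, from 191170296 to 191218039, with 4 exons in each of its 2 protein-coding transcripts. The WT pools had an FPKM of 6.79 and 11.3 and the KO pools one of 4.66 and 5.60, from 235, 419, 168 and 196 reads. Both KO values were below both WT values, although the gap between the WT pools was wider than that between the lower WT pool and the higher KO pool. The group values were 9.05 ± 3.20 (SD, n = 2) for WT against 5.13 ± 0.666 (SD, n = 2) for KO. The log2 fold change was -0.72, with a standard error of 0.26 and a 95% interval from -1.42 to -0.028 (limma, Benjamini-Hochberg adjusted p = 0.785). Its unadjusted p of 0.0444 ranked 868 among the genes tested. Leaving out WT replicate 2 gave -0.38 and leaving out WT replicate 1 gave -1.07.

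Fos (ENSMUSG00000021250) lies on the plus strand of chromosome 12 from 85473890 to 85477273 and encodes the founding partner of JUN in AP-1. FPKM values were 2.20 and 4.50 for WT and 2.39 and 2.59 for KO. WT replicate 2 stood alone, and the other 3 pools were close together. KO differed from WT by a log2 fold change of -0.30 with a 95% interval from -1.14 to 0.55 (limma, Benjamini-Hochberg adjusted p = 0.878). Without WT replicate 2 it was 0.15.

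Fosb (ENSMUSG00000003545), a close relative of Fos on the minus strand of chromosome 7 from 19302696 to 19310051, had the lowest level of all members. In WT the FPKM reached 0.379 and 0.233, in KO 0.115 and 0.197, from 38, 25, 12 and 20 reads. The KO pools lay below the WT pools, but the counting intervals of the nearest pools overlapped, from 0.151 to 0.344 in WT replicate 2 and from 0.121 to 0.305 in KO replicate 2. When all genes with any reads were fitted, its log2 fold change was -0.29 with a 95% interval from -0.73 to 0.14 (limma, Benjamini-Hochberg adjusted p = 0.824).

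Jun (ENSMUSG00000052684) is a gene of 1 exon on the minus strand of chromosome 4 from 95049034 to 95052222 and encodes the main DNA-binding partner in AP-1. The WT pools had an FPKM of 33.1 and 43.7 and the KO pools one of 36.9 and 26.6, so that KO replicate 1 lay between the WT pools and KO replicate 2 below both. The log2 fold change was -0.27, with a 95% interval from -0.87 to 0.32 (limma, Benjamini-Hochberg adjusted p = 0.848). The antisense gene Junos shares 689 bases with it, and its FPKM was at most 0.499.

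Junb (ENSMUSG00000052837), on the minus strand of chromosome 8 from 84974484 to 84978718, encodes a JUN protein that is a weaker activator than JUN itself. FPKM values were 31.6 and 52.1 for WT and 35.9 and 37.1 for KO, both KO values lying between the WT values. KO differed from WT by a log2 fold change of -0.15, with a 95% interval from -0.83 to 0.53 (limma, Benjamini-Hochberg adjusted p = 0.929), and without WT replicate 2 it was 0.21. The 3′ part of the Junb locus shares 351 bases with the peroxiredoxin gene Prdx2 on the other strand. Prdx2 had an FPKM from 60.9 to 64.4, and whether the counting used strand is not given in the sources used here, so reads in the shared stretch cannot be assigned to either gene.

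JUN family transcripts exceeded those of the FOS family in every pool. Summed over Jun, Junb and Jund, the JUN family had an FPKM of 69.2 and 104 in WT and 80.4 and 69.4 in KO. Summed over Fos, Fosb, Fosl1 and Fosl2, the FOS family had 12.5 and 20.9 in WT and 15.2 and 16.8 in KO. The JUN family was thus 5.54 and 4.97 times the FOS family in WT and 5.28 and 4.12 times in KO. Fosl2 held the largest share of the FOS family in WT replicate 1, WT replicate 2 and KO replicate 1, at 53.7%, 46.5% and 57.3%, while in KO replicate 2 its 40.0% was below the share of Fosl1, whose FPKM was 7.32 against 6.73. Fos made up 17.6% and 21.6% of that family in WT and 15.7% and 15.4% in KO, which did not overlap and were not tested. The ratio of Junb to Jun was 0.955 and 1.19 in WT and 0.974 and 1.39 in KO, and these groups overlapped.

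Egr1 (ENSMUSG00000038418), on the plus strand of chromosome 18 from 34859823 to 34864984, encodes a zinc finger factor that reads out growth factor and ERK signals. It had the widest gap between WT pools of all members on the log2 scale, with an FPKM of 7.47 and 16.1, against 7.65 and 9.20 in KO. The counting intervals of the WT pools, from 6.85 to 8.12 and from 15.2 to 17.0, were far apart. Both KO pools lay between the WT pools. The log2 fold change was -0.37, with a 95% interval from -1.35 to 0.61 (limma, Benjamini-Hochberg adjusted p = 0.870). Leaving out WT replicate 1 gave -0.90, and leaving out WT replicate 2 gave 0.16.

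Klf6 (ENSMUSG00000000078), on the plus strand of chromosome 13 from 5861482 to 5870394, encodes a Krüppel-like factor known to respond to tissue injury. In WT the FPKM reached 32.0 and 44.7, in KO 39.8 and 34.3. The KO values lay within the WT range, and the log2 fold change of -0.034 had a 95% interval from -0.57 to 0.50 (limma, Benjamini-Hochberg adjusted p = 0.982). Its sign turned without WT replicate 2, to 0.20, and without KO replicate 2, to 0.073.

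Ier2 (ENSMUSG00000053560), a gene of 1 exon on the minus strand of chromosome 8 from 84661331 to 84662852, was the member with a fold change above 0. The WT pools had an FPKM of 14.2 and 24.6 and the KO pools one of 20.7 and 25.3. WT replicate 1 stood below the other 3 pools. KO differed from WT by a log2 fold change of 0.28, with a 95% interval from -0.48 to 1.05 (limma, Benjamini-Hochberg adjusted p = 0.870). With WT replicate 1 left out its sign turned, to -0.10.

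Ier3 (ENSMUSG00000003541), on the plus strand of chromosome 17 from 35821684 to 35822923, encodes a small protein known to modulate apoptosis and ERK activity. FPKM values were 44.7 and 54.6 for WT and 39.3 and 52.3 for KO. The replicate number and not the genotype separated its values, since both replicates 2 lay above both replicates 1. The log2 fold change was -0.12, with a 95% interval from -0.64 to 0.40 (limma, Benjamini-Hochberg adjusted p = 0.923). Its sign turned without KO replicate 1, to 0.082, and without WT replicate 2, to 0.02.

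Myc (ENSMUSG00000022346), on the plus strand of chromosome 15 from 61985391 to 61990374, encodes the growth-promoting partner of MAX. WT values were 10.9 and 21.5 FPKM, a ratio of 1.96, and KO values 15.9 and 14.1 FPKM. Both KO values lay between the WT values, and the log2 fold change of -0.038 had a 95% interval from -0.91 to 0.83 (limma, Benjamini-Hochberg adjusted p = 0.989). Leaving out WT replicate 1 gave -0.51 and leaving out WT replicate 2 gave 0.43, and leaving out KO replicate 2 gave 0.046, so a change of either sign is compatible with these pools.

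**Figure D2:**
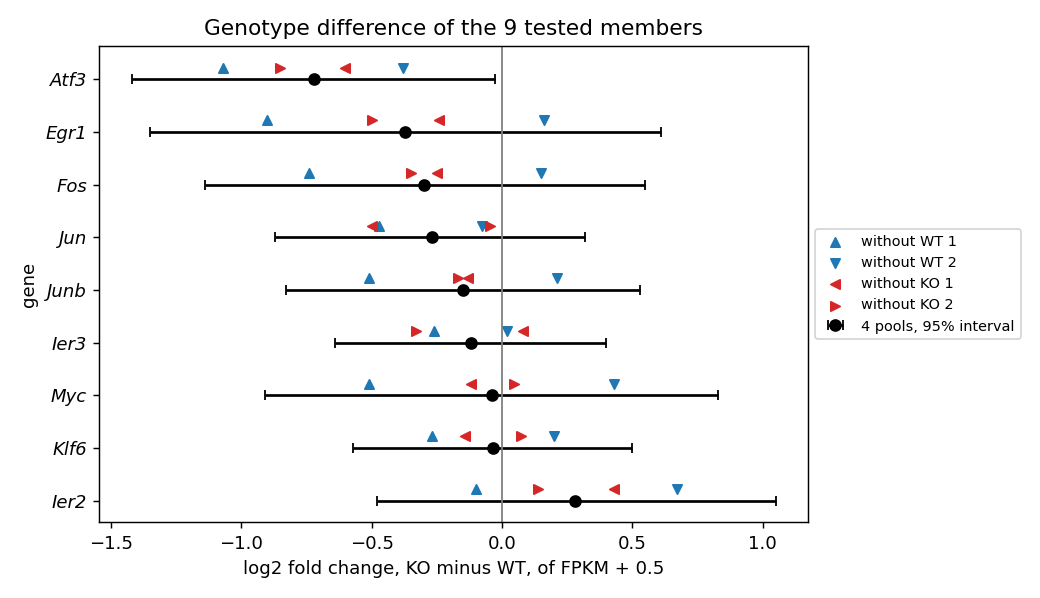
Log2 fold change of FPKM + 0.5 (KO minus WT) of the 9 tested genes. Black points with bars are estimates from 4 pools with limma's 95% interval, and triangles are estimates with the named pool left out. The interval of Atf3, from -1.42 to -0.028, did not reach 0, and removing WT replicate 2 moved every estimate to the right.

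On the log2 scale the difference between WT replicates 2 and 1 exceeded the genotype difference for 8 of the 9 tested members, Atf3 being the exception with 0.70 against -0.72, and for 59.5% of all genes tested. It was 1.06 for Egr1, 0.94 for Myc, 0.89 for Fos, 0.77 for Ier2 and 0.71 for Junb. The median signed gap, replicate 2 minus replicate 1, over the 9 members was 0.71 for WT and 0.098 for KO. Over 15192 tested genes, taking 1 gene for each name, it was -0.0026 and 0.0038. Gaps of opposite sign cancel in that median, so it does not give the size of a typical gap. For 9 of the 10 members the counting intervals of the WT pools were separate, with Fosb as the exception, as they were for 33.3% of all genes tested, a share that includes genes with few reads. Between the KO pools this held for 5 of 10, namely Jun, Egr1, Ier2, Ier3 and Klf6, and for 28.2% of all genes tested.

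WT replicate 2 was the highest pool for 8 of the 9 tested members, against 29.1% of all genes tested. Ier2 was the exception, with its highest value in KO replicate 2. Under quantile normalization it was the highest for 9 of the 9, against 31.4% of all genes. On the depth-scaled reads used for voom weights the count was also 9, but there the share of all genes was 45.5%. Ier2 was the member added in both, its values in WT replicate 2 and KO replicate 2 being close, and both scalings were chosen for this count after seeing the data. In 5 of the 9 both KO pools lay between the WT pools, namely Fos, Junb, Egr1, Klf6 and Myc, against 16% of all genes tested. Without WT replicate 2 the median log2 fold change of the members was 0.16, and without WT replicate 1 it was -0.51.

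All 8 macrophage markers, among them Adgre1, Csf1r and C1qa, were highest in WT replicate 2, and their summed FPKM was 184 and 457 in WT and 225 and 216 in KO. All 6 fibroblast markers were highest in the same pool, with sums of 140 and 277 in WT and 169 and 187 in KO. Of the endothelial markers 1 of 8 was highest there, with sums of 67.0 and 84.1 in WT and 80.5 and 96.7 in KO, and of the injured tubule markers 3 of 7, with sums of 613 and 804 in WT and 818 and 703 in KO. None of the 4 thick ascending limb and distal tubule markers was highest there, nor was any of the 6 proximal tubule markers, the latter with sums of 1635 and 1223 in WT and 912 and 1416 in KO. Of the 6 T cell markers only Trac reached the minimum for testing, with 4 and 17 reads in WT and 15 and 6 in KO. Cd3e had 3 reads in WT replicate 2, at the limit of detection, and 0 in the other pools. Cd4 had 14 and 33 reads in WT and 9 and 8 in KO, and Cd8a 19 and 20 in WT and 1 and 8 in KO. Cd3d and Cd3g had at most 9 reads in any pool. The summed FPKM of the 6 was 0.967 and 2.25 in WT and 1.11 and 0.687 in KO. For neutrophils, 3 of the 5 tested neutrophil markers were highest in that pool, with a summed FPKM of 11.1 and 22.8 in WT and 11.9 and 29.0 in KO. The part of these cell types in the members' values was not tested. In whole-kidney RNA more cells of a type and more RNA per cell cannot be told apart.

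**Figure D3:**
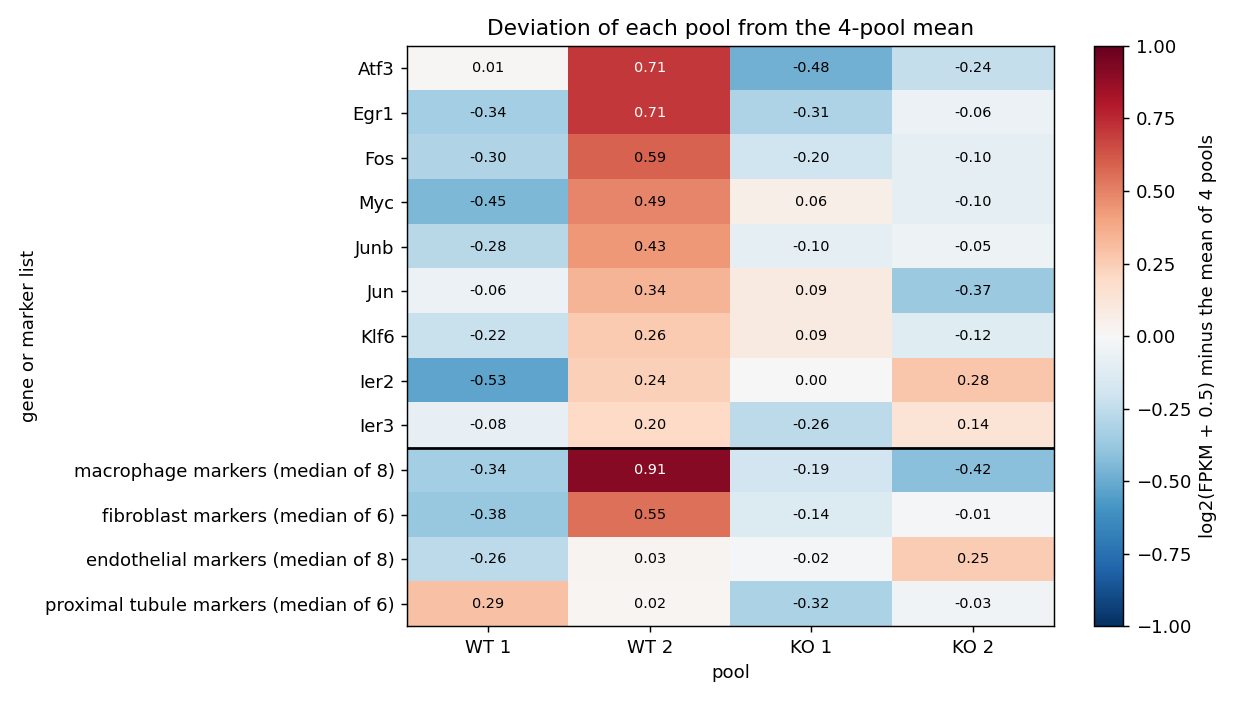
Difference of each pool from the mean of the 4 pools, in log2(FPKM + 0.5), for the 9 tested genes (above the line) and as the median of 4 marker lists (below it), with red above and blue below the mean. WT replicate 2 was above the mean for every member, from 0.20 for Ier3 to 0.71 for Egr1 and Atf3, and for the macrophage markers, at 0.91.

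The other genes of these pathways showed no adjusted p-value under 0.05 either, with 0 of 129 tested genes in 8 lists (limma with Benjamini-Hochberg adjustment). Those named below for an unadjusted p under 0.05 each had an adjusted p of 0.785. Among 13 AP-1 and leucine zipper partners the median log2 fold change was -0.00051, 3 had both KO pools below and 2 both above the WT pools, where 18.1% and 19.7% of all genes did, and 0 had an unadjusted p under 0.05. Atf5, a stress-responsive relative of Atf4, had an FPKM of 14.6 and 22.4 in WT and 10.3 and 14.4 in KO, a log2 fold change of -0.55. Jdp2, which represses AP-1, had values of 2.84 and 3.57 in WT and 3.76 and 4.24 in KO (0.29 on the log2 scale), and Mafg, a small MAF protein, had a log2 fold change of 0.20. Atf4, the most abundant of the list, was at 46.5 and 52.2 in WT and 49.8 and 54.4 in KO, and these groups overlapped.

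Among 28 other immediate early genes the median was 0.053, with 1 gene below and 5 above without overlap, against 18.1% and 19.7% of all genes. Klf10, Btg1 and Klf2 had the largest of these differences, at 0.34, 0.33 and 0.33 on the log2 scale. Klf4, which belongs to the Krüppel-like family of Klf6, was the 1 gene with an unadjusted p under 0.05 (limma, 0.0477). It was higher in KO, as were 3.29% of all genes at that level. Its FPKM was 7.33 and 8.05 in WT and 9.84 and 9.37 in KO. Rhob, a small GTPase and the most abundant of this list, was at 83.0 and 113 in WT and 113 and 80.3 in KO. WT replicate 2 was the highest pool for 35.7% of this list. That share was 61.5% of the AP-1 and leucine zipper partners, 54.5% of the AP-1 target genes and 50.0% of the serum response factor and CREB genes. It was 47.1% of the MYC targets, 33.3% of the MYC network and of the phosphatases and feedback inhibitors, and 23.8% of the MAP kinases, against 88.9% of the tested members and 29.1% of all genes.

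Upstream of the members, 12 genes for serum response factor, its partners and CREB had a median of -0.02, a range from -0.14 to 0.20 and 0 genes with an unadjusted p under 0.05. Elk4, a partner of serum response factor, had a log2 fold change of 0.20, and Crtc2 and Crtc1, coactivators of CREB, had 0.17 and -0.14. Srf itself was at 11.6 and 14.1 in WT and 10.1 and 13.4 in KO. Of 21 MAP kinase genes 9 had both KO pools above and 2 both below the WT pools, against 19.7% and 18.1% of all genes. An unadjusted p under 0.05 was found for 2 of them, both higher, and for 3.29% of all genes in that direction. These were Mapk13, a p38 kinase, with an FPKM of 18.4 and 13.6 in WT and 23.5 and 22.8 in KO (log2 fold change 0.53), and Map2k3, which activates p38, with 19.1 and 18.5 in WT and 23.0 and 23.9 in KO (0.31). Mapkapk2, a kinase downstream of p38, had 70.9 and 71.6 in WT and 98.5 and 73.9 in KO.

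Among 15 phosphatases and feedback inhibitors of MAP kinases, the median was 0.031, and 2 had both KO pools below and 4 both above the WT pools, against 18.1% and 19.7% of all genes. At an unadjusted p under 0.05 there was 1 lower and there were 2 higher genes, against 3.03% and 3.29% of all genes. Dusp4, a nuclear phosphatase of MAP kinases, had an FPKM of 7.63 and 9.84 in WT and 12.5 and 17.5 in KO, a log2 fold change of 0.74 with a 95% interval from 0.16 to 1.31. Spred2, an inhibitor of ERK signalling, had 10.6 and 12.0 in WT and 14.3 and 14.1 in KO, and Spry1, with a similar role, had a log2 fold change of 0.42. Dusp10, which acts on JNK and p38, had 1.53 and 2.18 in WT and 1.04 and 1.03 in KO, a log2 fold change of -0.60. Dusp1, the most abundant, was at 23.5 and 27.5 in WT and 24.4 and 27.7 in KO, and these groups overlapped.

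Downstream, 12 genes of the MYC network had a median of 0.085 and 0 with an unadjusted p under 0.05, with log2 fold changes of 0.15 for Mxd4 and -0.076 for Mxd1, which encode repressors that pair with MAX. Mlx, the most abundant, was at 18.6 and 14.9 in WT and 16.1 and 18.6 in KO. Of 17 MYC target genes 4 had both KO pools below and 2 both above the WT pools, against 18.1% and 19.7% of all genes, with a median of -0.04. Odc1, the rate-limiting enzyme of polyamine synthesis, was the 1 with an unadjusted p under 0.05, against 3.03% of all genes lower at that level. It had an FPKM of 193 and 192 in WT and 131 and 157 in KO (log2 fold change -0.43, 95% interval from -0.85 to -0.0047). Nop58 and Cdk4 had log2 fold changes of -0.26 and -0.19, and Ldha had 0.14. Over 11 AP-1 target genes of injured tissue the median was -0.13. Of these, 3 had both KO pools below and 1 both above the WT pools, against 18.1% and 19.7% of all genes. Mmp13, a collagenase, was the 1 with an unadjusted p under 0.05, where 3.03% of all genes were lower at that level. Its FPKM was 0.745 and 1.20 in WT and 0.358 and 0.392 in KO. Plau, the gene of urokinase, had 301 and 387 in WT and 237 and 288 in KO, Cd44 had a log2 fold change of -0.84 and Hmox1 of 0.46. Spp1, the gene of osteopontin and the most abundant of these, was at 7026 and 7789 in WT and 8961 and 6872 in KO.

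**Figure D4:**
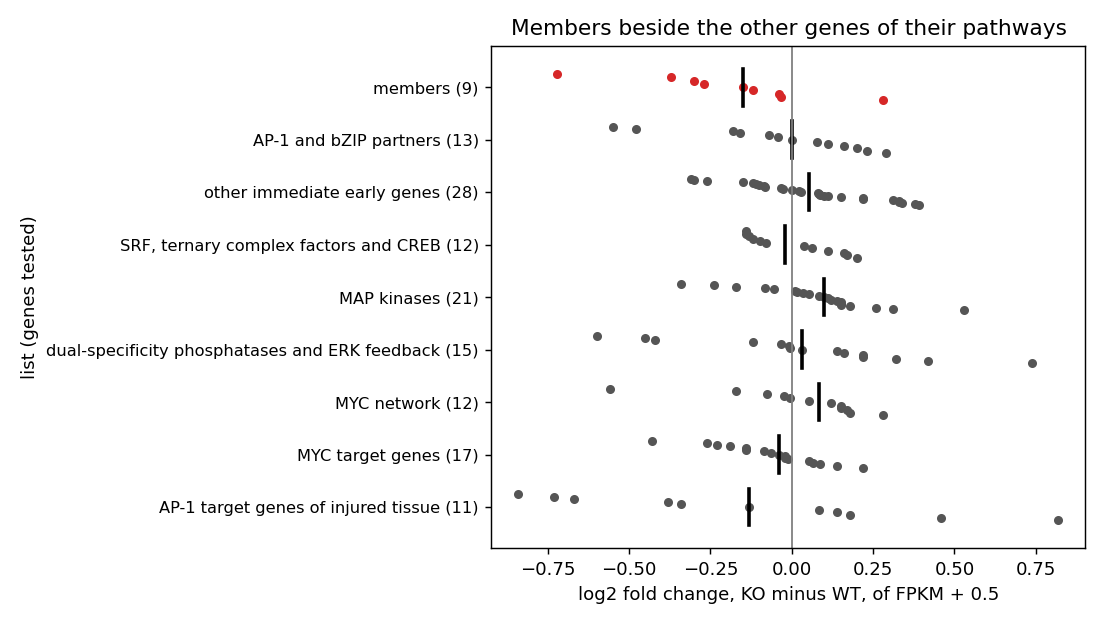
Log2 fold change of FPKM + 0.5 (KO minus WT) of each tested gene (points), in the members (red) and 8 lists of genes from the same pathways (grey), with the number of genes tested in parentheses and black bars at the medians. Medians lay between -0.15 for the members and 0.10 for the MAP kinases, and 0 genes passed an adjusted p-value of 0.05 (limma, Benjamini-Hochberg).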

How the data were processed

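The deposited values are FPKM per gene and pool, made by the authors with a sequencing company from poly-A selected libraries. The submitters' processing notes name HISAT2 2.0.5 and the builds mm10 and GRCm38.p6, and the counting tool is not given in the sources used here. Gene positions were identical to GENCODE M21 for 97.1% of shared genes and for all 10 members. Deposited FPKM values were multiplied by gene length and divided by the smallest nonzero product of their pool, taken as 1 read. This gave whole numbers, within 0.01 of a read, for 100.0% of nonzero values, so reads were recovered. With counting tests reserved for deposited counts, log2(FPKM + 0.5) was fitted with limma 3.58.1 in R 4.3.3 (mean-variance trend, no covariates, two-sided), for genes whose mean FPKM reached 0.5, adjusting by Benjamini-Hochberg over 15414 genes. Called means an adjusted p-value under 0.05. An FPKM fold change on this scale understates the change of low genes. Intervals on reads are exact 95% Poisson intervals and cover counting error only. A gene with 3 reads or fewer was at the limit of detection. Pools of a group differed by more than read sampling (chi-square per gene 34.6 in WT and 26.9 in KO).

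The members and lists were chosen with earlier results of these data known. Named in the text are all members, Apela, and from each list the 3 genes with the largest change among those without overlap of the pools and with a mean FPKM of at least 1, the most abundant gene, and, chosen after their values were seen, the genes with an unadjusted p under 0.05 and single members of other lists given for context. The fit was tested on data drawn by computer. The series text names adipose tissue as the source, whereas its title and sample labels name the kidney, and kidney markers were high in every pool. The labels and the paper's methods differ on the strain, which the latter give as C57BL/6. The alternatives tried were other pseudocounts (0.1 and 1), other filters (none, or a mean of 1 FPKM), protein-coding genes alone, quantile normalization, a fit without trend, a fit blocked by replicate number, recovered reads weighted by voom, and leaving out each pool. Python 3.11.15 with pandas 2.3.3 and scipy 1.17.1 did the rest.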

Additional observations from a re-analysis of the deposited data

How the results depend on the processing

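No member had an adjusted p-value under 0.05 in limma under any of the 13 alternatives, and neither did any other gene tested, where the number at an unadjusted p under 0.05 was 687 to 1720. The number of members whose pools did not overlap was 1, and 2 without a filter, where Fosb was added. With a pool left out it was 2 to 8, namely 8, 7, 3 and 2 of 9 without WT replicate 1, WT replicate 2, KO replicate 1 and KO replicate 2, where 73.7%, 66.3%, 67.7% and 67.3% of all genes did not overlap, against 37.8% with 4 pools. The number with an unadjusted p under 0.05 was 1, and it was 0 without a filter and without a trend, where Atf3 had 0.0603 and 0.0570. With a pool left out it was 0 to 5, the 5 being Fos, Junb, Egr1, Atf3 and Myc without WT replicate 1, where 11.2% of all genes had such a p, against 6.32% with 4 pools. Without WT replicate 2 it was 1, namely Ier2, against 4.46%. The median log2 fold change of -0.15 ranged from -0.51 to 0.16 with a pool left out and from -0.23 to -0.15 otherwise. Without a filter, which added Fosb, it was -0.21.

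Over all alternatives the limma adjusted p of Atf3 ranged from 0.317 to 0.992 (Benjamini-Hochberg) and its log2 fold change from -1.07 to -0.38. Leaving out a pool turned the sign of 7 of the 9 members, with log2 fold changes from -0.74 to 0.15 for Fos, -0.51 to 0.21 for Junb, -0.90 to 0.16 for Egr1, -0.10 to 0.67 for Ier2, -0.33 to 0.082 for Ier3, -0.27 to 0.20 for Klf6 and -0.51 to 0.43 for Myc. It did not change for Atf3 or for Jun, from -0.50 to -0.044. The cause was not tested. A lone pool was assumed to vary like the other group. No other alternative changed a direction.

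Pools share replicate numbers, and the correlation of the deviations of same-numbered pools across 15414 genes was -0.0017. No pairing by number was thus seen over all genes together, but this value cannot exclude one that affects only some genes. With the replicate block 0 members had an adjusted p-value under 0.05 (limma), so the block changed no call. At an unadjusted p under 0.05 there was 1 member, against 932 of the 15414 genes tested. Whether pools overlap does not depend on the block. With 2 pools a group an interval as wide as that of Egr1, from -1.35 to 0.61, does not show that a gene is unchanged. Depth limits Fosb, with 12 to 38 reads.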
